A study of Mus musculus with 16 samples.

Results

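The Cd209 genes encode C-type lectins, and 6 of them, Cd209a, Cd209b, Cd209d, Cd209e, Cd209f and Cd209g, were followed here in adipose tissue macrophages of lean and obese mice. The members were chosen by gene symbol: every probe set whose single annotated symbol is one of the 6 names was taken, which gave 7 probe sets, 2 of them for Cd209b, of 34945 probe sets with 1 gene symbol and 45101 on the array. All 6 symbols matched the RefSeq gene table. The study sorted macrophages from perigonadal adipose tissue, the fat pad beside the gonads, of C57BL/6J mice aged 12 to 14 weeks, and hybridised RNA amplified in 2 rounds to 16 arrays. Lean mice were Lep +/+ and obese mice Lep ob/ob, which lack leptin, the satiety hormone made by fat cells, from birth; no diet or drug treatment is given in the labels. FB cells carried the macrophage antigen encoded by Adgre1 and CD11b but no CD11c, and FBC cells carried all 3 antigens. Each of the 4 groups, obese FB, obese FBC, lean FB and lean FBC, had 4 arrays, and there were 4 mice of each genotype per the design text, so FB and FBC arrays of a genotype can share animals.

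C-type lectins of this family are membrane proteins that bind sugars through a calcium-dependent domain outside the cell and take up or hold the particles that carry them. Mouse Cd209 genes lie side by side in a cluster and are related to the human gene of dendritic cells known as DC-SIGN. In mouse tissues several of the receptors are carried by resident macrophages, where they bind glycans of microbes and of host proteins.

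In the RefSeq gene table the cluster runs in the order Cd209a, Cd209e, Cd209d, Cd209b, Cd209c, Cd209f and Cd209g; Cd209c is not among the 6 genes described. Because the members are related in sequence and probe sequences were not used here, it was not tested whether a probe set also binds transcripts of another member, and each value stands for a probe set. Promoter windows, from 250 bases before to 50 bases after the start of a transcript, were available for all 6 genes from RefSeq (GRCm38.p6). The windows of Cd209f and Cd209g are shown because these neighbours are the closest pair and also had the lowest changes among the members; capitals mark the longest run of letters the windows share. Both are written 5′ to 3′ along the gene.

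Cd209f, chr8:4105715-4106014, minus strand: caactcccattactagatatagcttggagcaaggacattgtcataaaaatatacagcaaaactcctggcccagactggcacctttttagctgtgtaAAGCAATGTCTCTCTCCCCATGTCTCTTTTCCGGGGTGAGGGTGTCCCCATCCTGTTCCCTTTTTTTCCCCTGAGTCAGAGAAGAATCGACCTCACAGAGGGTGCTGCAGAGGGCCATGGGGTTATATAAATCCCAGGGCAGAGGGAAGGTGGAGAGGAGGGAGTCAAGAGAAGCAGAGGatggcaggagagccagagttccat
Cd209g, chr8:4134486-4134785, plus strand: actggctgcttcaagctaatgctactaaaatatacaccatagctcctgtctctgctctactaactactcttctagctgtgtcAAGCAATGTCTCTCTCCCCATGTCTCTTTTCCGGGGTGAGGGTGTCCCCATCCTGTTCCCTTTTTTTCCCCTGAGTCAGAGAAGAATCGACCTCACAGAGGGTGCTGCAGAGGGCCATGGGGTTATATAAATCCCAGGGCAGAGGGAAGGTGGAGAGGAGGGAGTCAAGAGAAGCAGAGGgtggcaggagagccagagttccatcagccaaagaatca

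The run of 180 identical bases spans positions -154 to 26 of Cd209f and -168 to 12 of Cd209g, counted from the transcript start, and 86.0% of the 300 bases of the windows could be aligned as identical. The other 14 pairs of windows had between 50.0% and 61.7% identical bases, and none shared a run longer than 17 bases. The longest of these runs was found in Cd209a and Cd209b, shown with capitals for the shared letters. Cd209a and Cd209e shared 14 bases, positions -9 to 5 of Cd209a and -85 to -72 of Cd209e, and are shown in the same way.

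Cd209a, chr8:3748935-3748973, minus strand: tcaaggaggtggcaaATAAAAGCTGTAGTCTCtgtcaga
Cd209b, chr8:3926812-3926858, minus strand: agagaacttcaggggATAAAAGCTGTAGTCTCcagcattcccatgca
Cd209a, chr8:3748965-3749008, minus strand: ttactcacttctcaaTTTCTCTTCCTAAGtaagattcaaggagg
Cd209e, chr8:3854343-3854386, minus strand: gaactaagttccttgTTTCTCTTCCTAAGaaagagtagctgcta

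Each window was searched on both strands for 4 short motifs. The AP-1 motif TGANTCA was found as TGAGTCA in Cd209f at -83 and in Cd209g at -97, inside the shared run, and in 7.81% of the 32851 promoter windows of the table. The STAT6-type motif, TTC and GAA with 4 bases between them, was found in Cd209e at -79, as TTCCTAAGAA, and in 6.95% of all windows. That match begins inside the run shared with Cd209a and ends beyond it, and the Cd209a window held no match. The MAF motif TGCTGA was found in Cd209a and Cd209d (19.48% of all windows), and the PU.1-type motif GAGGAA in Cd209d (28.28%). The Cd209b window matched none of the 4 motifs. A match is a description of the letters and does not show that a factor binds there.

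The deposited values are probe set intensities scaled to a trimmed mean of 250 on every array. Differences below are log2 changes ± SE on log2(intensity + 16) values, from 1 limma model of the 4 groups over all 34945 probe sets, with Benjamini-Hochberg adjustment over all of them and a threshold of 0.05. Adding 16 understates the change of dim probe sets. Levels on this scale are given as mean ± SD over the 4 arrays of a group, are compared within a probe set and never between probe sets, and can be read against the array median of 5.87, since the files hold no detection calls. Itgax, which encodes CD11c, was higher in FBC than in FB of obese mice (2.20 ± 0.26, adjusted p = 0.000258 by limma) and differed by 1.49 ± 0.26 in lean mice (adjusted p = 0.0565) and within each genotype the FBC and FB arrays did not overlap. Adgre1 lay between 11.94 and 13.69 and the macrophage receptor Csf1r between 13.36 and 13.68 on all 16 arrays, and Adgre1 was higher in obese than in lean FBC (1.08 ± 0.24, adjusted p = 0.012 by limma). Actin signal at the 3′ end over that at the 5′ end was 48.0 for lean FBC array 4, 53.3 for lean FB array 4 and 45.0 for obese FB array 4, and 1.15 to 10.9 for the other arrays. As the RNA was amplified in 2 rounds, this ratio does not measure RNA degradation alone. In bulk samples, fewer cells that carry a transcript and less of it per cell cannot be told apart.

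The comparison of obese with lean mice asks how leptin-deficient obesity alters these receptors in each macrophage population. In FB macrophages all 7 Cd209 probe sets fell with obesity, from -1.31 for Cd209a to -5.60 for Cd209g, where 1.35% of all probe sets tested were called lower. In FBC macrophages 4 of the 7 were called lower, those of Cd209d, Cd209e, Cd209f and Cd209g, from -2.38 to -3.86, where 2.65% were called lower. Cd209a and both Cd209b probe sets were also lower there, from -0.92 to -2.12, but not called (limma adjusted p of 0.0574 to 0.0715). All 7 had an unadjusted limma p under 0.05 in FBC, where 6943 of all 34945 probe sets had one. No member probe set was called higher in obese mice in either population. Of all 34945 probe sets, 732 were called in FB, 472 of them lower, and 2077 in FBC, 925 of them lower. The median change of the 7 was -3.49 in FB and -2.38 in FBC, and the median over all probe sets was 0.03 in both. In FB no obese array reached the lowest lean array for any of the 7 probe sets, as was so for 4.03% of all probe sets in that direction. In FBC this held for the probe sets of Cd209a, Cd209d, Cd209e and Cd209g (5.51% of all).

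**Figure D1:**
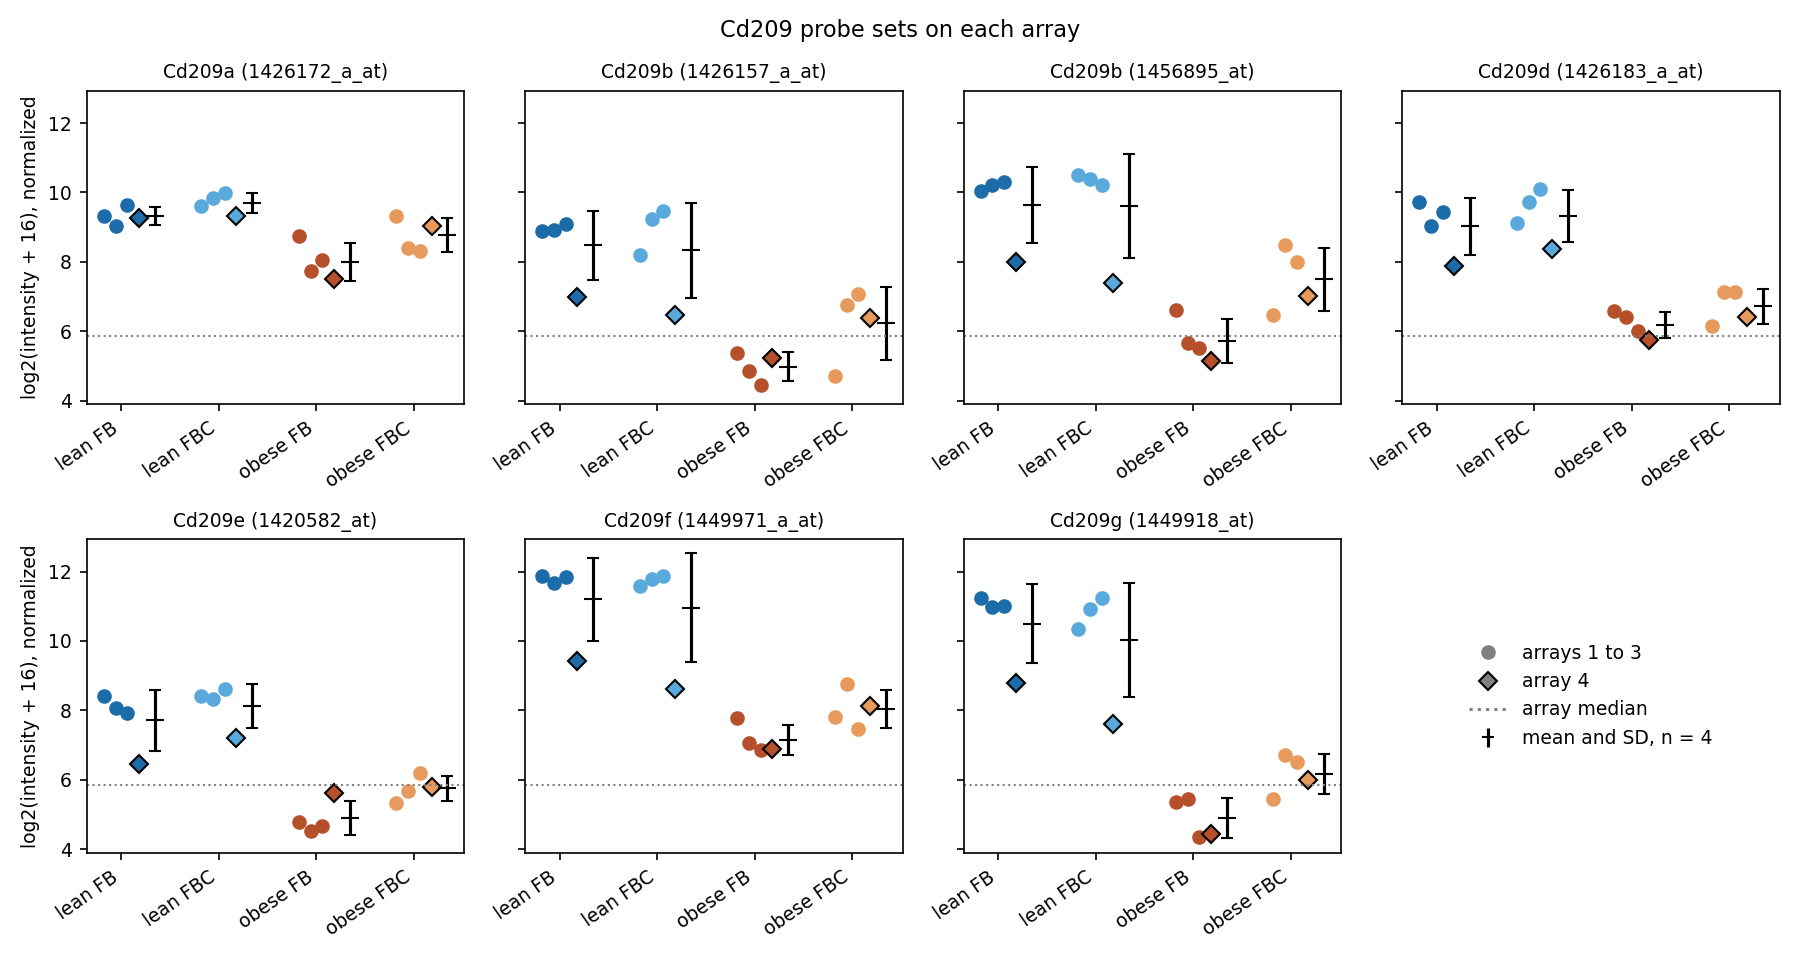
Normalized log2(intensity + 16) of each Cd209 probe set on every array of the 4 groups, with the mean and SD of 4 arrays (black) and the array median (dotted); arrays numbered 4 are diamonds. Lean arrays lie above obese FB arrays in every panel, and lean arrays 4 lie lowest of their group in all panels but that of Cd209a in FB.

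Cd209a encodes the mouse protein named DC-SIGN, which dendritic cells and some monocyte-derived cells carry. Its intensity was 621, 495.6, 779.5 and 579.5 on lean FB arrays 1 to 4, and 778.1, 900.8, 976 and 594.7 on lean FBC arrays 1 to 4. On obese FB arrays it was 399.2, 181.7, 234.4 and 144.7, and on obese FBC arrays 626.2, 351.8, 342.8 and 537.7. All obese FB arrays lay below all lean FB arrays, and after normalization the obese FBC arrays lay just below the lean FBC arrays, although the intensity of obese FBC array 1 exceeded that of lean FBC array 4. The level was 8.0 ± 0.54 for obese FB, 8.77 ± 0.49 for obese FBC, 9.32 ± 0.25 for lean FB and 9.69 ± 0.28 for lean FBC. Cd209a fell in obese FB (-1.31 ± 0.28, limma adjusted p = 0.0199). In obese FBC the difference was -0.92 ± 0.28, with a limma adjusted p of 0.0601, and it passed without obese FB array 1 (adjusted p = 0.0334), obese FB array 4 (0.0458) or obese FBC array 1 (0.0364). It was the member of smallest change in both populations, and it stayed above the array median on all 16 arrays. The call in FB was lost when any 1 of 4 arrays was left out, with adjusted p = 0.058 without lean FB array 1, 0.0794 without lean FB array 3, 0.0682 without obese FB array 2 and 0.0548 without obese FB array 3.

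Cd209b encodes SIGNR1, the receptor by which macrophages of the splenic marginal zone bind dextran and bacterial capsules. Its probe set 1456895_at read 1053, 1126, 1218 and 226.7 on lean FB arrays 1 to 4 and 1468, 1326, 1141 and 135.9 on lean FBC arrays. In obese mice it read 89.5, 32.9, 31.4 and 16 on FB arrays and 68.9, 372, 274.4 and 112.3 on FBC arrays. Lean arrays 1 to 3 were high in both populations, lean arrays 4 were several times lower, and obese FBC arrays 2 and 3 reached above lean FBC array 4. This probe set fell in obese FB (-3.90 ± 0.66, limma adjusted p = 0.00472), where only 1 of 4 arrays was above the array median. With 64 in place of 16 added to the intensities this probe set changed by -3.05 in FB and stayed called. In FBC its difference was -2.12 ± 0.66, limma adjusted p = 0.0715, and it passed without lean FBC array 4 (-2.87, adjusted p = 0.00587) or without lean FB array 4 (adjusted p = 0.0407).

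The other Cd209b probe set, 1426157_a_at, read 465.1, 455.1, 539.9 and 102.4 on lean FB arrays 1 to 4 and 282.8, 578.1, 677 and 66.6 on lean FBC arrays. In obese mice it read 31, 13.1, 6.2 and 18.5 on FB arrays and 10.2, 96.5, 136.5 and 64.2 on FBC arrays. The order of the arrays was close to that of the first probe set, with lean arrays 4 again low and the FBC groups overlapping. It fell in obese FB (-3.49 ± 0.62, limma adjusted p = 0.00671), where all 4 arrays were below the array median. In FBC the difference was -2.10 ± 0.62, limma adjusted p = 0.0574, and it passed without lean FBC array 4 (-2.73, adjusted p = 0.00941) or without lean FB array 4 (adjusted p = 0.0332). Over the 16 arrays the Cd209b probe sets correlated at r = 0.963.

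Cd209d encodes SIGNR3, a receptor that binds mycobacteria. It read 848.2, 497.9, 677.1 and 206.4 on lean FB arrays 1 to 4 and 560.3, 820.4, 1054 and 289.8 on lean FBC arrays. In obese mice it read 86.9, 63.2, 49.4 and 31.8 on FB arrays and 52.5, 134.7, 145.2 and 65.3 on FBC arrays. Lean and obese arrays did not overlap in either population, although lean arrays 4 were the lowest lean ones. From low to high, the level was 6.19 ± 0.38 for obese FB, 6.72 ± 0.51 for obese FBC, 9.02 ± 0.81 for lean FB and 9.34 ± 0.75 for lean FBC. Cd209d fell in FB (-2.83 ± 0.40, limma adjusted p = 0.00136) and in FBC (-2.62 ± 0.40, limma adjusted p = 0.00089).

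Cd209e encodes SIGNR4, a less studied receptor of the family. It read 333.5, 253.6, 243.8 and 65.6 on lean FB arrays 1 to 4 and 331.2, 303.6, 374 and 117.7 on lean FBC arrays. In obese mice it read 14.6, 7.1, 10.3 and 28.2 on FB arrays and 23.3, 35.9, 64.4 and 36.2 on FBC arrays. The lean groups lay wholly above the obese ones, and all obese FB arrays and 3 of 4 obese FBC arrays were below the array median, where the size of a change is imprecise. Cd209e fell in FB (-2.81 ± 0.39, limma adjusted p = 0.00116) and in FBC (-2.38 ± 0.39, limma adjusted p = 0.00157). With 64 in place of 16 added to the intensities the change in FB was -1.74 and stayed called.

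Cd209f, which encodes SIGNR8, read 3610, 3180, 3457 and 649.9 on lean FB arrays 1 to 4 and 2998, 3541, 3794 and 348.6 on lean FBC arrays. In obese mice it read 207.5, 108.2, 95.8 and 87.9 on FB arrays and 205.7, 453.1, 183.1 and 281.1 on FBC arrays. Lean arrays 1 to 3 were alike in both populations, lean FB array 4 still exceeded every obese FB array, and obese FBC array 2 lay above lean FBC array 4. The level was 7.16 ± 0.43 for obese FB, 8.04 ± 0.55 for obese FBC, 10.96 ± 1.56 for lean FBC and 11.20 ± 1.19 for lean FB, and all 16 arrays were above the array median. Cd209f fell in FB (-4.04 ± 0.64, limma adjusted p = 0.00308), which is 16.5-fold on this scale, and in FBC (-2.92 ± 0.64, limma adjusted p = 0.0123).

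Cd209g, which encodes SIGNR7, read 2369, 1957, 1938 and 411.4 on lean FB arrays 1 to 4 and 1310, 1932, 2386 and 163.6 on lean FBC arrays. In obese mice it read 30.2, 26.7, 4.7 and 4.4 on FB arrays and 26.2, 92.5, 87 and 43.6 on FBC arrays. The groups did not overlap in either population, and all 4 obese FB arrays were below the array median. Cd209g fell in FB (-5.60 ± 0.66, limma adjusted p = 0.000239), the lowest of the 34945 changes in that comparison, and in FBC (-3.86 ± 0.66, limma adjusted p = 0.00224), the 5th lowest. The FB change is 48.4-fold on this scale, and since obese FB readings were near the bottom of the array its size is imprecise, from -6.79 to -4.26 over the alternatives tried. By the same ranking in FB, Cd209f was 6th, the Cd209b probe sets 8th and 18th, Cd209d 47th, Cd209e 50th and Cd209a 542nd from the lowest.

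**Figure D2:**
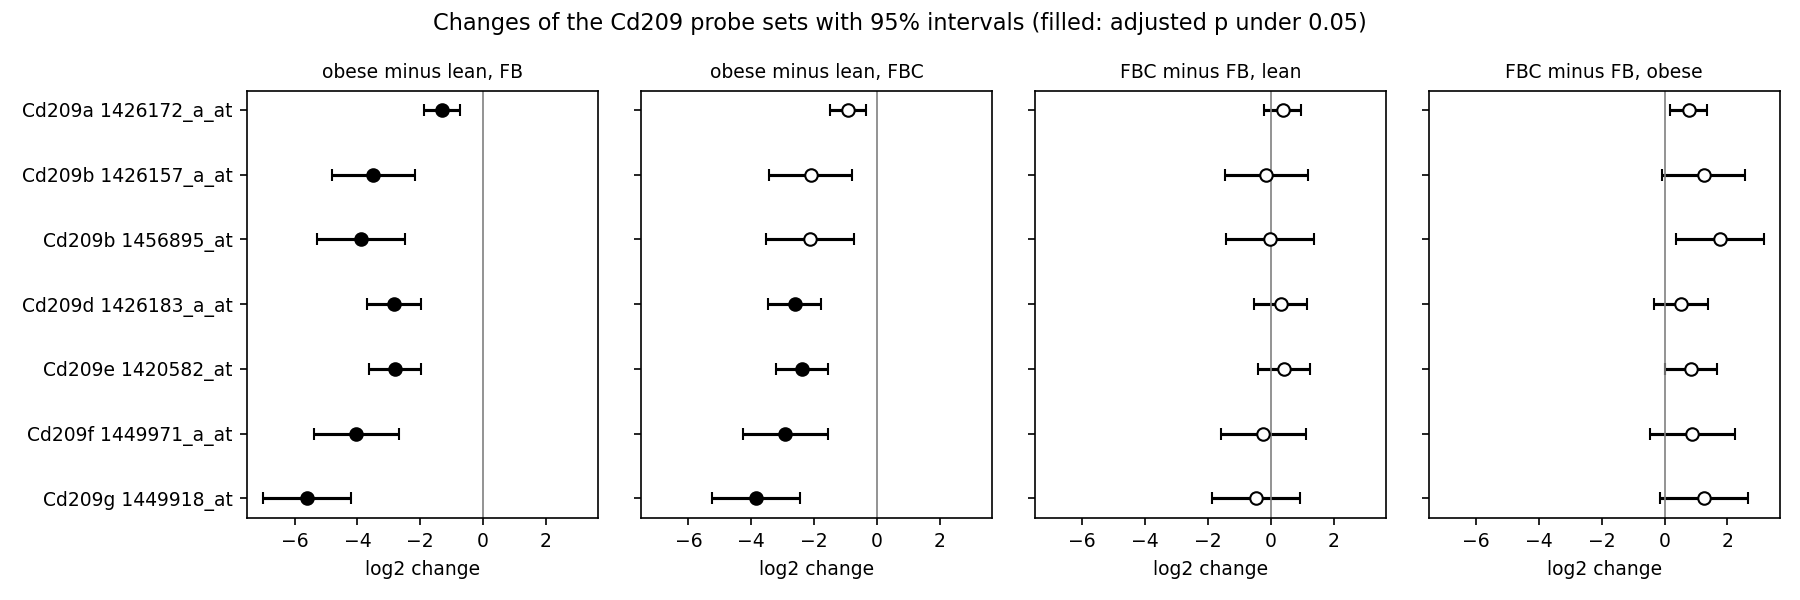
Log2 change of each Cd209 probe set with its 95% interval in the 4 pairwise comparisons, filled where the limma adjusted p was under 0.05. All 7 points are filled in obese against lean FB, 4 in obese against lean FBC, and none in either comparison of FBC with FB.

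Lean arrays 4 stood apart within their groups. In lean FB, array 4 differed from the mean of the other 3 arrays by -2.37 for Cd209f, -2.27 for Cd209g, -2.19 and -1.99 for Cd209b, -1.69 for Cd209e and -1.53 for Cd209d. In lean FBC the corresponding values were -3.12 for Cd209f, -3.21 for Cd209g, -2.98 and -2.49 for Cd209b, -1.25 for Cd209e and -1.27 for Cd209d. Cd209a was the exception, at -0.07 in FB and -0.47 in FBC. These arrays had high actin ratios, and so had obese FB array 4. On that array Cd209e was above the other obese FB arrays (5.63 against 4.53 to 4.78), Cd209a, Cd209d and Cd209b 1456895_at were below them, by -0.59 to -0.80 against their means, and the other 3 probe sets lay within their range. With the 3 arrays of high actin ratio left out, all 7 member probe sets were called lower in obese FB and all 7 in obese FBC. Lean FB array 4 also differed in markers of other cells. Its summed intensity of 11 monocyte markers was 57347, while lean FB arrays 1 to 3 had 24672 to 28211 and obese FB arrays 50482 to 60480. Its summed intensity of 5 eosinophil markers was 5299, while lean FB arrays 1 to 3 had 307 to 456. On lean FBC array 4 the monocyte sum was 35721, against 23046 to 26237 on lean FBC arrays 1 to 3. The eosinophil sum there was 839, against 263 to 449.

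Without both lean arrays 4, an alternative chosen after seeing the data, the changes in FB were -6.17 for Cd209g, -4.63 for Cd209f, -4.45 and -3.99 for Cd209b, -3.23 for Cd209e, -3.21 for Cd209d and -1.33 for Cd209a, and all 7 stayed called. In FBC without them 6 of 7 were called, since both Cd209b probe sets passed (-2.87, adjusted p = 0.000684, and -2.73, adjusted p = 0.00213), while Cd209a did not (-1.04, adjusted p = 0.0501 by limma). Cd209g was then at -4.66, Cd209f at -3.70, Cd209d at -2.93 and Cd209e at -2.69 in FBC.

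The comparison of FBC with FB asks whether cells with CD11c on their surface differ in these receptors. In lean mice no member probe set was called, where 0.0372% of all probe sets were called in either direction. None had an unadjusted limma p under 0.05, where 2342 of all 34945 probe sets had one. The differences, FBC minus FB, ran from -0.48 for Cd209g (95% interval -1.88 to 0.92) to 0.42 for Cd209e (-0.41 to 1.25). The groups overlapped for all 7, and the signs were mixed. All 7 intervals include 0 and come from a model that did not pair FB with FBC arrays. A p above the threshold does not show that the populations are alike.

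In obese mice no member was called either, where 1.89% of all probe sets were called higher in FBC and 3.14% in either direction. All 7 differences were positive, from 0.53 for Cd209d to 1.76 for Cd209b probe set 1456895_at, with limma adjusted p between 0.153 and 0.556. The 3 member probe sets with an unadjusted limma p under 0.05 were Cd209e (0.85 ± 0.39), Cd209a (0.77 ± 0.28) and Cd209b 1456895_at (1.76 ± 0.66). Of all 34945 probe sets, 5971 had such a p in this comparison. The groups overlapped for all 7 member probe sets. Without obese FB array 1, which read highest of its group for all members but Cd209e, Cd209a was called (1.01, adjusted p = 0.0442). Without both lean arrays 4, the calls were Cd209b 1456895_at (adjusted p = 0.0134), Cd209g (1.26, adjusted p = 0.0278) and Cd209e (adjusted p = 0.0497). The obesity effect itself was less negative in FBC than in FB by 0.21 for Cd209d to 1.78 for Cd209b 1456895_at. None of these differences was called, where 0.0286% of all probe sets were called. None had an unadjusted limma p under 0.05, where 3512 of all 34945 probe sets had one.

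The ordering of the groups followed from these comparisons. By mean level, obese FB was the lowest group for all 7 probe sets and obese FBC the next. Arrays of lean FB and lean FBC overlapped for every member, as did those of obese FB and obese FBC. Obese FBC also overlapped lean FB for Cd209a and both Cd209b probe sets, and lean FBC for Cd209f and both Cd209b probe sets. Either lean population could be the highest, FBC for Cd209a, Cd209d and Cd209e and FB for the others.

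Over the 16 arrays the 15 pairs of probe sets without Cd209a had Pearson r between 0.917 and 0.983, with Cd209f and Cd209g the closest. This r is a description over arrays that share a genotype difference and the low lean arrays 4. With the group means subtracted it was 0.695 to 0.929, and with both lean arrays 4 left out as well, over 14 arrays, -0.239 to 0.904 with a median of 0.54. Over those 14 arrays r was 0.904 for Cd209d and Cd209g and 0.517 for Cd209f and Cd209g. Cd209e had an r of -0.239 with Cd209f, -0.002 with Cd209b 1456895_at, 0.049 with Cd209g, 0.102 with Cd209d and 0.539 with Cd209b 1426157_a_at there. The 6 pairs with Cd209a had r between 0.723 and 0.802 over all arrays and between -0.08 and 0.357 within groups. With both lean arrays 4 left out as well, r of these pairs was -0.503 to 0.361 with a median of -0.12. The mean of the centred member values, taken over 1 probe set a gene, was -1.98 ± 0.35 for obese FB, -0.97 ± 0.33 for obese FBC, 1.44 ± 0.85 for lean FB and 1.5 ± 1.04 for lean FBC, with lean arrays 4 at 0.18 and -0.03.

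**Figure D3:**
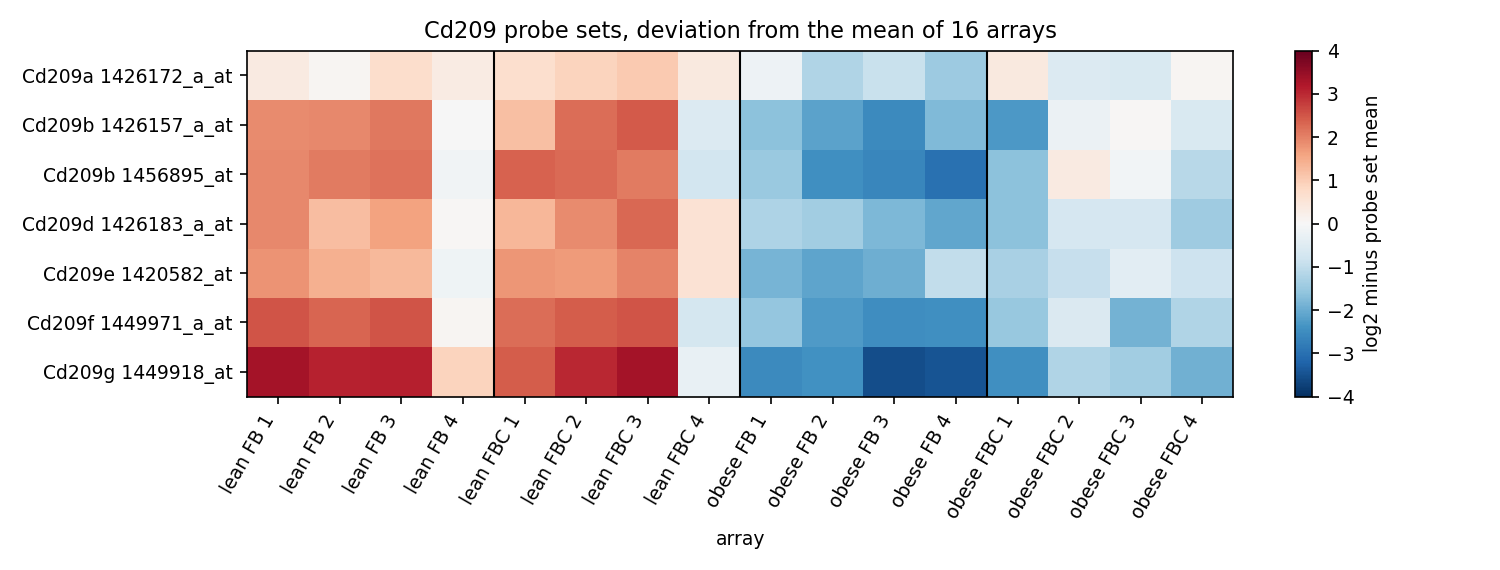
Deviation of each Cd209 probe set from its mean over 16 arrays, in log2 units, with arrays in columns by group. Rows other than Cd209a share the high values of lean arrays 1 to 3 and the intermediate values of lean arrays 4, and obese arrays are low.

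Genes outside the family were ranked by their Pearson r with that mean over the 16 arrays. The 8 highest were Klhl13, an adaptor of a ubiquitin ligase (0.988), Penk, which encodes proenkephalin (0.98), Car3, a carbonic anhydrase abundant in adipocytes (0.974), Tslp, an epithelial cytokine (0.966), Diras2 (0.966), the histamine receptor Hrh1 (0.965), Plaat3, a phospholipase of adipose tissue (0.964), and the sodium channel subunit Scn3b (0.963). Since the mean itself is high in lean and low in obese arrays, genes ranked this way must differ in the same direction, and their changes are given as a description only: -4.35 ± 0.56 in FB and -2.73 ± 0.56 in FBC for Klhl13, and -3.12 ± 0.48 and -1.95 ± 0.48 for Penk. The opposite pattern was clearest for Fcgr4, an activating antibody receptor (-0.973), with changes of 1.94 ± 0.32 in FB and 1.80 ± 0.32 in FBC, followed by Ostm1, Tpd52 and Cyfip2. Within groups and without lean arrays 4, r was 0.77 for Klhl13, 0.699 for Plaat3, 0.695 for Tslp, 0.688 for Penk and 0.628 for Diras2. It was 0.489 for Hrh1, 0.392 for Car3 and 0.336 for Scn3b. For the genes of opposite pattern it was -0.658 for Tpd52, -0.475 for Ostm1, -0.282 for Fcgr4 and 0.002 for Cyfip2. Cd209a was alone in its neighbours: they were Arg1 (0.908), the phosphatidylserine receptor Timd4 (0.908) and the class II chain H2-Ab1 (0.885), whereas Klhl13 was among the nearest 3 genes of each of the other 5.

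The fall of the members was set beside related gene lists, each gene read from its brightest probe set. Of 28 other lectin receptors measured, C-type lectins and the sialic acid lectin Siglec1, 2 fell and 1 rose in obese FB. Mgl2, a galactose-type lectin of macrophages, fell (-2.39 ± 0.40), as did Clec4g, which lies near the Cd209 cluster (-1.54 ± 0.25), and the receptor Cd93 rose (1.08 ± 0.21; limma adjusted p = 0.00407, 0.00374 and 0.0134). In obese FBC, Olr1, a scavenger receptor (-2.94 ± 0.51), Mgl2 (-2.28 ± 0.40) and Clec4g (-1.76 ± 0.25) fell and Cd93 rose (1.74 ± 0.21), with limma adjusted p of at most 0.00243. The medians of this list were -0.03 and 0.10, near those of all probe sets. The mannose receptor Mrc1 (-0.48 ± 0.31 in FB, 0.26 ± 0.31 in FBC) and Clec10a (-0.57 ± 0.22 and 0.15 ± 0.22) were not called.

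Of 16 measured neighbours of the cluster, Clec4g fell in both populations and the low-affinity IgE receptor Fcer2a, below the array median on every array, fell in obese FBC (-0.73 ± 0.20, limma adjusted p = 0.0374). The other genes there were not called in these comparisons. Among 16 adaptors and kinases of lectin signalling none was called in FB. In FBC the phosphatase Ptpn6 rose (1.0 ± 0.24), and Malt1 (-2.13 ± 0.48) and Ptpn11 (-0.78 ± 0.16) fell, with limma adjusted p of at most 0.0199.

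Interleukin 4 acts through Il4ra and Stat6 to induce a set of macrophage genes and, in cultured monocytes, the human DC-SIGN gene. Of 28 measured genes of that pathway, 7 fell and 1 rose in obese FB, and 9 fell and none rose in obese FBC, with medians of -0.27 and -0.34. Those that fell in both populations included the secreted protein Retnla (-3.02 ± 0.31 in FB and -3.11 ± 0.31 in FBC), the chemokine Ccl17 (-2.88 ± 0.28 and -3.34 ± 0.28), arginase Arg1 (-2.78 ± 0.37 and -2.38 ± 0.37), the chemokine Ccl22 (-2.48 ± 0.36 and -2.05 ± 0.36), Mgl2, Ccl24 and the transcription factor Irf4, with limma adjusted p of at most 0.00588. The fatty acid receptor Pparg rose in FB (1.14 ± 0.20, limma adjusted p = 0.00641). The receptor and its factor were not called, with Il4ra at -0.24 ± 0.27 in FB and 0.08 ± 0.27 in FBC. Stat6 was at 0.10 ± 0.17 and 0.30 ± 0.17. Chil3, of the same list, was at 1.75 ± 0.45 in FB (limma adjusted p = 0.055) and -0.34 ± 0.45 in FBC, and was not called. The part that this pathway had in the Cd209 values was not tested.

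**Figure D4:**
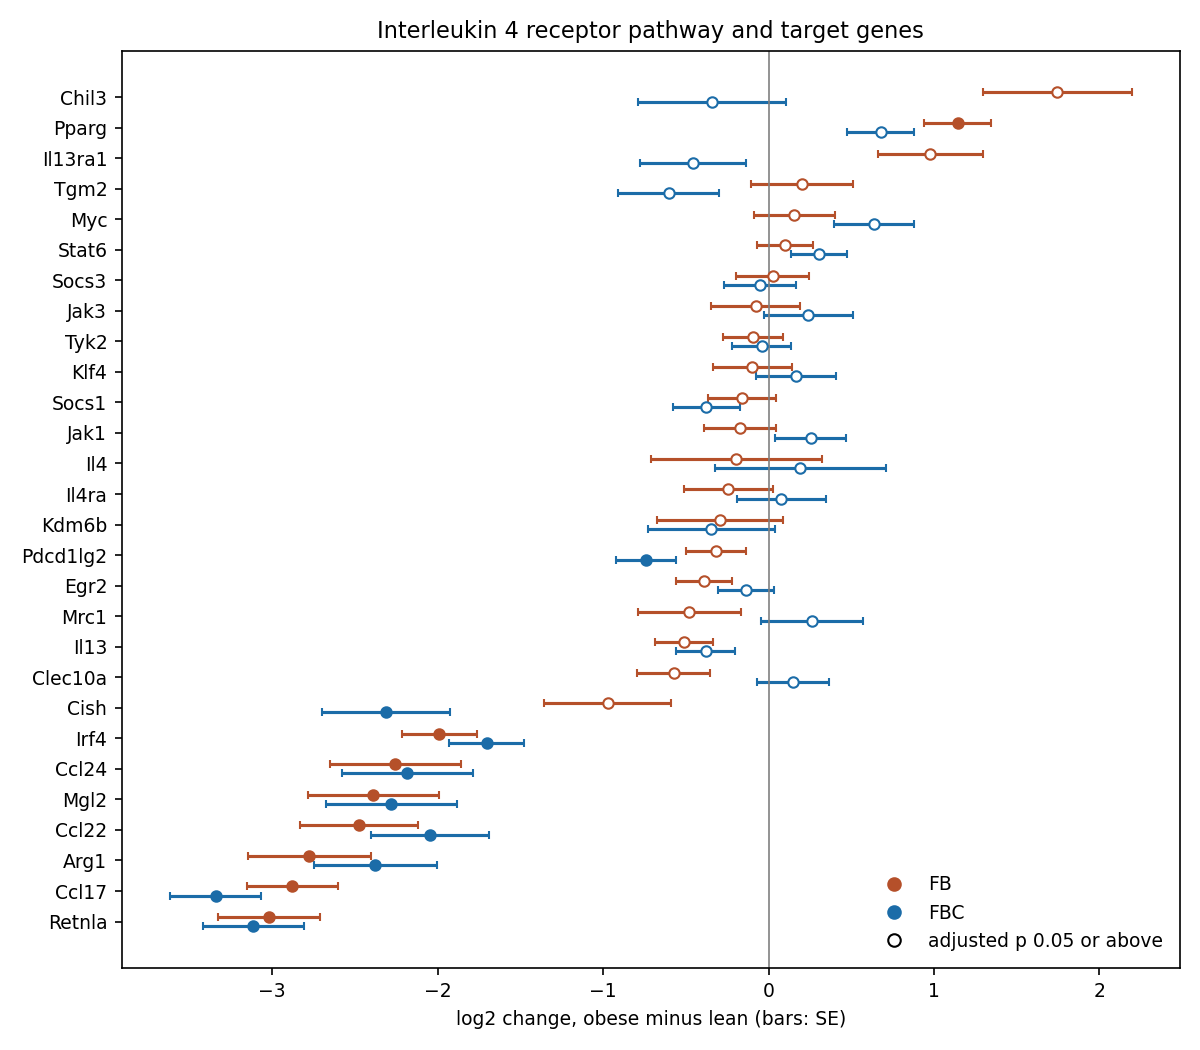
Log2 change, obese minus lean, of 28 genes of the interleukin 4 receptor pathway and its targets in FB (red) and FBC (blue), with SE bars, filled where the limma adjusted p was under 0.05. Retnla, Ccl17, Arg1, Ccl22, Mgl2, Ccl24 and Irf4 are filled on the left in both populations, and Il4ra and Stat6 lie near 0.

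Markers of the cells that could carry or accompany these lectins also moved. Of 21 resident macrophage markers, Lyve1, the hyaluronan receptor (-3.21 ± 0.70), the ficolin Fcna (-3.07 ± 0.56), Timd4 (-3.00 ± 0.36), Ltc4s (-2.31 ± 0.54) and Cd163 (-2.10 ± 0.42) fell in obese FB and none rose (limma adjusted p of at most 0.0362). In obese FBC only Timd4 of this list fell (-2.79 ± 0.36), while the complement receptor Vsig4 (2.36 ± 0.41) and Gata6 (0.56 ± 0.16) rose (limma adjusted p of at most 0.0456). Gata6 lay near the array median, with a mean of 5.48 in lean FBC and 6.03 in obese FBC, so its change is imprecise. The summed intensity of the 21 genes was 97682 to 116528 on lean FB arrays 1 to 3, 67060 on lean FB array 4 and 54227 to 75691 in obese FB. In FBC it was 90799 to 111815 on lean arrays 1 to 3, 40387 on lean array 4 and 63330 to 79151 in obese mice.

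Of 23 dendritic cell markers 6 fell in obese FB and 7 in obese FBC and none rose. The largest changes were those of Ccl22, Fscn1 (-2.23 ± 0.29), the class II chaperone subunit H2-DMb2 (-2.08 ± 0.34) and Irf4 in FB, and of Cd24a (-2.85 ± 0.57), H2-DMb2 (-2.45 ± 0.34), Ccl22 and Zbtb46 (-1.79 ± 0.34) in FBC, with limma adjusted p of at most 0.00708. Their sum was 22108 to 40946 in lean FB and 18842 to 22399 in obese FB, and 26567 to 48080 in lean FBC and 19151 to 21411 in obese FBC, with array 4 the highest of each lean group. Of 11 monocyte markers 2 rose in obese FB, haptoglobin Hp (1.88 ± 0.35) and Treml4 (2.35 ± 0.58), and 4 fell in obese FBC (limma adjusted p of at most 0.0458). Their sum was 23046 to 35721 in lean FBC and 13855 to 17969 in obese FBC.

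Of 16 fibroblast markers 3 fell in obese FB, Dpep1, Cd34 and Pdgfra, and 1, Mgp, rose in obese FBC. Their sum was 31139 to 45542 on lean FB arrays 1 to 3, 18853 on lean FB array 4 and 9576 to 12790 in obese FB; in FBC it was 24767 to 31511 on lean arrays 1 to 3, 17230 on lean array 4 and 12655 to 26371 in obese mice. Of 10 mesothelial markers 2 fell in FB and 1 in FBC, with a sum of 1162 to 4811 in lean FB and 271 to 769 in obese FB. The adipocyte list, with 10 genes, had 2 called lower in FB, and 2 lower and 1 higher in FBC. Its sum was 8807 to 10998 on lean FB arrays 1 to 3, 3772 on lean FB array 4 and 3929 to 8197 in obese FB. In FBC it was 11884 to 13397 on lean arrays 1 to 3, 6656 on lean array 4 and 6252 to 7750 in obese mice. Among markers of other blood cells, 1 of 12 T and NK cell genes fell in FB and in FBC, 0 of 8 B cell genes in FB and 2 in FBC, and of 10 neutrophil genes 1 rose and 1 fell in FB and 1 fell in FBC. No gene of 5 eosinophil and 7 mast cell markers was called in these comparisons. Cd3d, Cd3e, Cd4, Ncr1, Pax5, Epx and Prg2 were below the array median on all arrays. The lists share genes, among them Mgl2, Irf4 and Ccl22. The part that any of these cells had in the Cd209 values was not tested.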

How the data were processed

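RNA of 4 groups of sorted adipose tissue macrophages was measured on 16 Affymetrix Mouse Genome 430 2.0 arrays, 4 a group. Values deposited by the authors were linear probe set intensity, which the submitters' processing notes say came from Affymetrix Expression Console. Its version, the summarization and the genome build: not given in the sources used here. No sample column was left out. After adding a pseudocount of 16 and taking log2, quantile normalization was applied to the 16 arrays. The array held 45101 probe sets, of which 64 were controls, 932 carried several symbols and 9160 none; the other 34945, with 18193 symbols, were fitted without a filter on level, since a filter would test only members that are high somewhere.

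One limma model (lmFit and eBayes, 12 residual and 16.56 total degrees of freedom) gave all comparisons, with Benjamini-Hochberg adjustment over all 34945 probe sets and a threshold of 0.05. The steps were tested on simulated data with independent noise around 1 mean per probe set, without low arrays or shared animals. Of 70 probe sets changed by each size, 24 to 34 were called for -1, 63 to 67 for -2 and 69 to 70 for -4, over the 4 pairwise comparisons. All member probe sets are described. Like genes are those of highest r among non-member genes with a mean above the median of all probe sets, clone and model symbols left out: 3 for each member, and 8 and 4 in the opposite direction for the family mean. From each list up to 4 called genes of largest change are named. A few others, such as Mrc1, Clec10a, Il4ra, Stat6 and Chil3, were named after their values were seen. The members and lists were chosen with earlier results of these data known.

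Array numbers come from the titles. For numbers 1 to 4, residuals of the lean FB and the lean FBC array had r of 0.114, 0.132, 0.191 and 0.464. Each was over 0.1, the limit set for pairing, but the lean FBC array closest to lean FB array 1 was number 3. Arrays of different genotypes, which cannot share a mouse, reached 0.208 (lean and obese FB arrays 4) and 0.182 (lean and obese FBC arrays 3). An r over 0.1 therefore does not show that arrays share a mouse. For obese FB and FBC arrays r was 0.235, 0.029, -0.058 and -0.098. The reported model used no block for mice or array numbers. Nothing in the labels says which arrays share a mouse. Precision is set by the number of arrays; p-values reflect only the spread among arrays, which may be in part technical. Alternatives were other normalizations, pseudocounts, filters, probe set rules, models, blocks and left-out arrays. One planned motif search is not reported here. Promoter windows were aligned with Biopython 1.88; limma 3.58.1 ran in R 4.3.3, and figures were drawn with matplotlib 3.10.9 in Python 3.11.15.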

Additional observations from a re-analysis of the deposited data

Results flagged for a closer look

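Of 28 sets of 4 arrays, 1 for each of 7 probe sets and 4 groups, 6 had 1 array far from the other 3 by Dixon's criterion, and in each it was the lowest array, numbered 4, of a lean group. Chance alone gives about 1 in 20 such sets, and the sets are not independent, since the same arrays recur. The Cd209f level was 9.42 on lean FB array 4, against 11.66 to 11.86 on the others, and 8.63 on lean FBC array 4, against 11.59 to 11.86. Cd209b probe set 1456895_at was at 7.99 on lean FB array 4, against 10.05 to 10.31, and at 7.38 on lean FBC array 4, against 10.21 to 10.49. Cd209b probe set 1426157_a_at was at 6.99 on lean FB array 4, against 8.90 to 9.10. Cd209g was at 8.80 on lean FB array 4, against 10.98 to 11.23. The changes without both of these arrays stand beside the comparisons of obese with lean mice.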

How the results depend on the processing

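All 7 probe sets stayed called lower in obese FB under every alternative run, except that Cd209a was lost with only the groups compared (adjusted p = 0.0549) and without each of 4 arrays, which gave 6 to 7 calls with 1 array left out. In obese FBC the 4 calls became 7 with a filter on level, a stricter filter, array weights and the replicate block. They also became 7 with the arrays of high actin ratio left out and with that ratio as a covariate. They became 4 to 6 with 1 array left out, and 6 without both lean arrays 4, an alternative chosen after seeing the data. Cd209a and Cd209b 1426157_a_at were added with eBayes trend and robust settings (limma adjusted p = 0.0496 and 0.0414). Cd209b 1426157_a_at was added with cyclic loess (0.0464) and Cd209a with a pseudocount of 64 (0.0463). With 1 probe set a gene Cd209a was added (0.0495). With a filter as well, Cd209a (0.035) and Cd209b 1456895_at (0.0424) were added. For FBC against FB in obese mice 0 calls became 2 with array weights, 1 with the replicate block, 2 without the arrays of high actin ratio, 3 without both lean arrays 4 and 0 to 1 with 1 array left out. With the replicate block the added calls were Cd209a (adjusted p = 0.0474), Cd209b 1426157_a_at (0.0369) and Cd209b 1456895_at (0.0153) in obese FBC, and Cd209b 1456895_at in obese FBC against FB (0.0326); the numbers pair neither lean with obese arrays nor the obese arrays. The block changed no other count. In lean mice and for the difference of the obesity effects no alternative called a member.

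Of 1173 values of single members 22 changed sign, none of them called. In lean mice Cd209b 1426157_a_at became 0.0059 with array weights. Cd209b 1456895_at became 0.10 with median centring, 0.0062 with a pseudocount of 64, 0.0503 with array weights, and 0.18 without arrays of high actin ratio or without both lean arrays 4. With 1 array left out the lean values ran from -0.637 to 0.482 for Cd209b 1426157_a_at, -0.57 to 0.73 for Cd209b 1456895_at, -0.001 to 0.73 for Cd209e, -0.0682 to 0.63 for Cd209d, -1.05 to 0.32 for Cd209g and -0.83 to 0.54 for Cd209f, each lowest without lean FB array 4 and highest without lean FBC array 4. With the actin ratio as a covariate Cd209f was -0.0066 in obese FBC against FB and Cd209d -0.18 in the difference of the effects, where it was -0.10 to 0.60 with 1 array left out. The cause was not tested. Calls over all probe sets ran from 286 to 4046 in FB (732 as reported), 1143 to 4019 in FBC (2077), 5 to 108 in lean (13) and 580 to 2201 in obese FBC against FB (1099), and 1 to 447 for the difference (10), highest with array weights. Without a background measure, levels below the array median are imprecise.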
